A study of Danio rerio with 3 samples.

Results

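The genes described here are the ascorbate-dependent collagen hydroxylases and the ascorbate transporters of the zebrafish embryo. They were chosen by name: p4ha1a, p4ha1b, p4ha2 and p4hb of prolyl 4-hydroxylase, the lysyl hydroxylase genes plod1a, plod2 and plod3, and the transporter genes slc23a1 and slc23a2. Of these 9 genes, 8 were measured, by 12 probes, among 15548 named genes on the array. No probe carried the name slc23a2, so it was not analysed here. Several probes measured p4ha2 (3), plod2 (2) and slc23a1 (2), and the other 5 genes had 1 each.

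Wild-type embryos of strain Ab were injected either with 7.5 ng of a morpholino (MO) against slc2a10 or with 5 ng of a control MO, and their RNA was taken at 48 hours post fertilization. An MO is an antisense oligomer, and the slc2a10 MO is directed at the splice donor of exon 2. The gene slc2a10 encodes the transporter GLUT10. Each of the 3 slc2a10 MO replicates held 10 to 15 whole embryos that had been sorted for a Class 1 phenotype, and each was hybridised on a two-colour array together with 1 pool of control MO RNA, with the dyes swapped on replicate 2. Dose and sorting thus differed between the groups along with the MO, and nothing in the labels reports how much slc2a10 protein or correctly spliced transcript was left.

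The sequences of both oligomers are shown because they define the groups. Capitals mark the 6 bases of the slc2a10 MO that are complementary to GTAAGT, a sequence typical of the start of an intron. It begins at base 6 of the reverse complement of the MO. The control MO was not searched for such a sequence and so has no capitals.
slc2a10 MO: caaataaagtccACTTACttggt
control MO: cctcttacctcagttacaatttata

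Collagen chains are hydroxylated on proline and lysine in the endoplasmic reticulum before they fold into a triple helix. The enzymes use iron, oxygen and 2-oxoglutarate, and ascorbate keeps their iron reduced, which is why a lack of vitamin C weakens collagen in scurvy. Hydroxyproline stabilises the helix and hydroxylysine carries crosslinks and sugars. In mammals, sodium-dependent transporters of the SLC23 family take up ascorbate, while some facilitative glucose transporters carry its oxidised form, dehydroascorbate. GLUT10 has been proposed to supply it inside cells, and people who lack it have arterial tortuosity syndrome, in which connective tissue and large arteries are malformed.

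The data were log ratios of unstated base, read here as log2, and all fold sizes below depend on that reading. Signs are given relative to slc2a10: a positive value lies on the side of slc2a10 and a negative value on the opposite side. The direction of the deposited ratio is not stated. The sample titles name the slc2a10 MO first for replicates 1 and 3 and the control pool first for replicate 2. A ratio in title order would make a positive value an excess in the knockdown samples, but no label says that the ratio follows the titles. A ratio of Cy5 to Cy3 would make a positive value an excess in the control pool, and a ratio of Cy3 to Cy5 an excess in the knockdown samples. The deposited values of replicate 2 correlated at -0.65 with replicate 1 and at -0.69 with replicate 3 over all probes, against 0.48 between replicates 1 and 3, so the sign of replicate 2 was turned. Ratios hold no expression levels, so the tissue label could not be checked against markers, and levels of different genes cannot be compared. In whole embryos, fewer cells of a type and less RNA per cell cannot be told apart. Values are means ± SD of 3 arrays. The SD holds the spread of the knockdown replicates together with that of labelling and hybridisation, which cannot be told apart here. It holds no spread of controls, since the control pool is 1 sample. Nothing beyond the labels' word biological says how separate the knockdown replicates were.

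None of the 8 described hydroxylase and ascorbate transporter genes passed the test with all 3 arrays. Of the 8 measured genes, 0 had an adjusted p under 0.05 (limma with Benjamini-Hochberg adjustment over 15548 genes) and so were called, while 19.3% of all named genes were, 11.1% with positive and 8.16% with negative values. At an unadjusted p under 0.05 the count was 1 of 8, plod1a, against 31.4% of all genes. The means lay between -0.26 and 0.06, with 5 below and 3 above 0. Their median absolute size was 0.074, close to the 0.082 of all genes. What set several of these genes apart from the typical gene was the spread between the arrays: the median SD over the 8 genes was 0.17, against 0.089 over all genes.

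**Figure D1:**
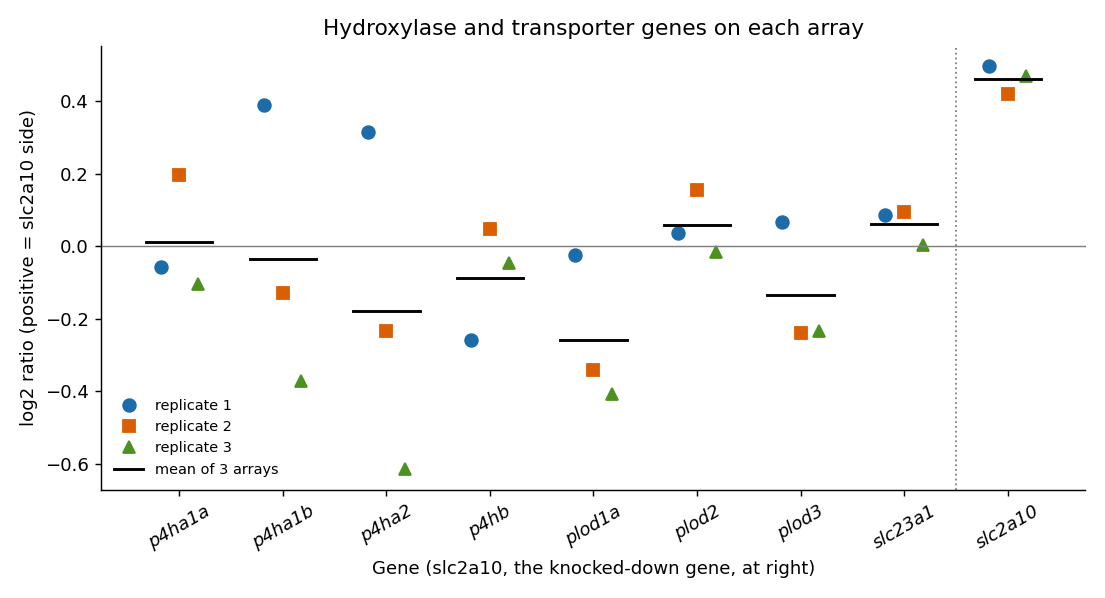
Log2 ratio (vertical axis, positive on the slc2a10 side) of the 8 measured genes and of slc2a10 on each array, with the mean of the 3 arrays as a bar. The 3 arrays lie close together for slc2a10 (0.42 to 0.50) and far apart for p4ha2 (-0.62 to 0.31) and p4ha1b (-0.37 to 0.39).

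The knocked-down gene gives the scale. On replicates 1, 2 and 3 the single probe of slc2a10 read 0.50, 0.42 and 0.47. All arrays lay within 0.08 of each other, and the mean was 0.46 ± 0.04 (1.38-fold, adjusted p = 0.0008 by limma). Where this probe lies in the transcript is unknown here, and an MO at a splice site need not change the amount of RNA, so its value does not check the labels.

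Prolyl 4-hydroxylase is a tetramer of catalytic alpha subunits, encoded by the p4ha genes, and of protein disulfide isomerase, encoded by p4hb. The largest spread was that of p4ha2. Its log2 ratio, averaged over 3 probes, was 0.31 on replicate 1, -0.23 on replicate 2 and -0.62 on replicate 3. Replicate 1 thus lay on the slc2a10 side and both others on the opposite side. The mean of -0.18 ± 0.47 did not pass (limma adjusted p = 0.46), and its 95% interval ran from -0.51 to 0.15. The 95% intervals given here rest on limma's standard error (0.14 for p4ha2), which draws each gene's variance toward that of all genes. For p4ha2, with its large SD, the interval is thus narrower than the SD alone would give. The SD was at the 99.6th percentile of all genes, and 57 genes, p4ha2 included, had an SD that high.

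The 3 probes of p4ha2 showed the same order of arrays, with different sizes. The first probe had 0.44, -0.32 and -0.88 on replicates 1, 2 and 3. The second had 0.38, -0.22 and -0.63, and the third 0.12, -0.16 and -0.34. On each of them replicate 1 was the only array above 0 and replicate 3 was the lowest.

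The alpha subunit gene p4ha1b, measured by 1 probe, had 0.39, -0.13 and -0.37 on replicates 1, 2 and 3. As for p4ha2, replicate 1 alone was above 0 and replicate 3 was lowest. The mean was -0.04 ± 0.39 (limma adjusted p = 0.88), and the SD was at the 99.4th percentile of all genes. By Euclidean distance between the 3 ratios, p4ha1b was the gene ranked 33 in likeness to p4ha2 among all named genes (distance 0.28). A likeness over 3 arrays is a description only.

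The difference between replicates 1 and 3 does not depend on the turned sign of replicate 2, because both arrays had the same dye order and the same control pool. It compares 2 knockdown samples, each on its own array, and has no replicate. Replicate 1 exceeded replicate 3 by 0.93 on the log2 scale for p4ha2 (1.91-fold, the 99.8th percentile of all genes) and by 0.76 for p4ha1b (1.69-fold, the 99.7th percentile). For slc2a10 the same difference was 0.03. Which of the 2 knockdown samples held more p4ha2 transcript turns on the unstated direction of the ratio.

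The paralog p4ha1a did not share this order. It had -0.06, 0.20 and -0.10 on replicates 1, 2 and 3, with replicate 2 alone above 0, and a mean of 0.01 ± 0.16 (limma adjusted p = 0.94). The 95% interval ran from -0.15 to 0.17, so the ends of the interval are changes of 1.11-fold and 1.12-fold. Replicate 2 is the dye-swapped array whose sign was turned. With its deposited sign the mean of p4ha1a was -0.12. The part of dye order in the different value of replicate 2 was not tested.

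The beta subunit gene p4hb had -0.26, 0.05 and -0.05 on replicates 1, 2 and 3. Replicate 1 was lowest here, where it was highest for p4ha2 and p4ha1b. The mean was -0.09 ± 0.16 (limma adjusted p = 0.45, 95% interval from -0.24 to 0.07). Outside the 9 genes, the remaining alpha subunit gene p4ha3, named after its values were seen, had -0.06, 0.34 and 0.29, with replicate 1 again apart but on the other side, and a mean of 0.19 ± 0.22 (limma adjusted p = 0.15).

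**Figure D2:**
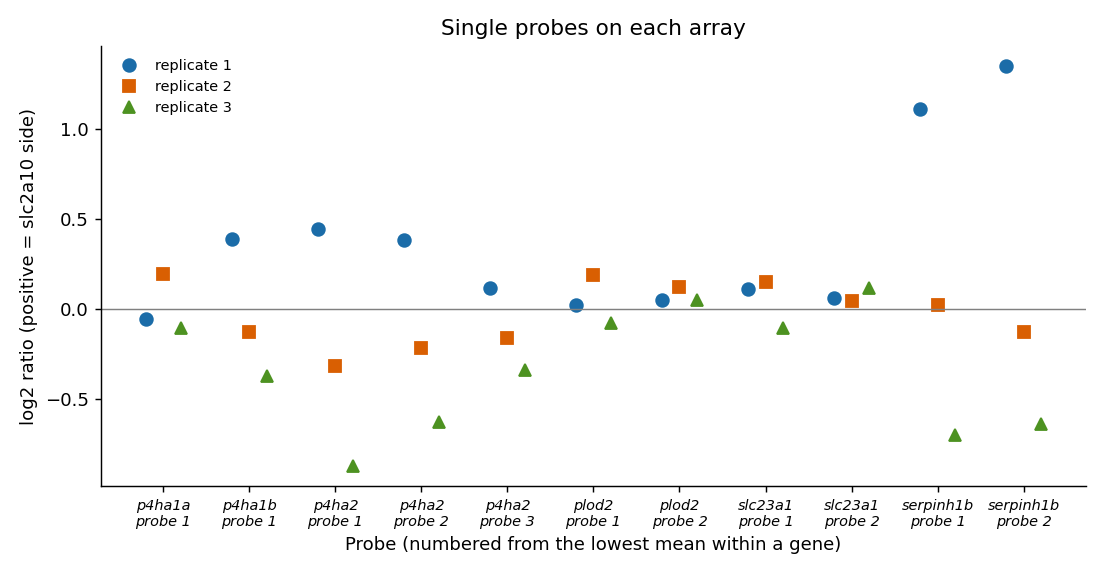
Log2 ratio (vertical axis, positive on the slc2a10 side) of single probes on each array, for p4ha1a, p4ha1b, the genes with several probes, and serpinh1b. All 3 probes of p4ha2 and both probes of serpinh1b have replicate 1 highest and replicate 3 lowest, while the probes of plod2 and slc23a1 stay between -0.11 and 0.19.

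Lysyl hydroxylases are encoded by the plod genes. The mean of largest size among the 8 genes belonged to plod1a, the ortholog of the human gene mutated in the kyphoscoliotic form of Ehlers-Danlos syndrome. It had -0.02, -0.34 and -0.41 on replicates 1, 2 and 3. Replicates 2 and 3 lay clearly on the opposite side and replicate 1 near 0. The mean of -0.26 ± 0.20 missed the threshold by a little (limma adjusted p = 0.053, unadjusted p = 0.010), and its 95% interval, -0.44 to -0.08, did not include 0 before adjustment.

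The gene plod3 encodes an enzyme that also attaches sugars to hydroxylysine, and the zebrafish mutant diwanka, with faulty motor axon growth, carries a mutation in it. Its values were 0.07, -0.24 and -0.23 on replicates 1, 2 and 3. Replicates 2 and 3 agreed within 0.01 and replicate 1 lay on the other side of 0. The mean was -0.14 ± 0.17 (limma adjusted p = 0.24, 95% interval from -0.30 to 0.03).

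The third lysyl hydroxylase, plod2, acts on the telopeptides of collagen and so on the kind of crosslink formed. Averaged over its 2 probes it had 0.04, 0.15 and -0.01 on replicates 1, 2 and 3, all close to 0. The probes had means of 0.04 ± 0.14 and 0.07 ± 0.04. The gene mean of 0.06 ± 0.09 did not pass (limma adjusted p = 0.54), and its 95% interval ran from -0.07 to 0.19.

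Of the transporters, slc23a1 encodes the ortholog of SVCT1, which takes up ascorbate in epithelia such as those of gut and kidney in mammals. It had 0.09, 0.10 and 0.004 on replicates 1, 2 and 3. This was the smallest SD of the 8 genes, at the 21.3rd percentile, with no array far from 0. It is the SD of the average of 2 probes, whose own SDs were 0.14 and 0.04. On replicate 3 these probes had opposite signs (-0.11 and 0.11). The mean was 0.06 ± 0.05 (limma adjusted p = 0.49), and the 95% interval ran from -0.06 to 0.18. The upper bound is a 1.13-fold change.

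**Figure D3:**
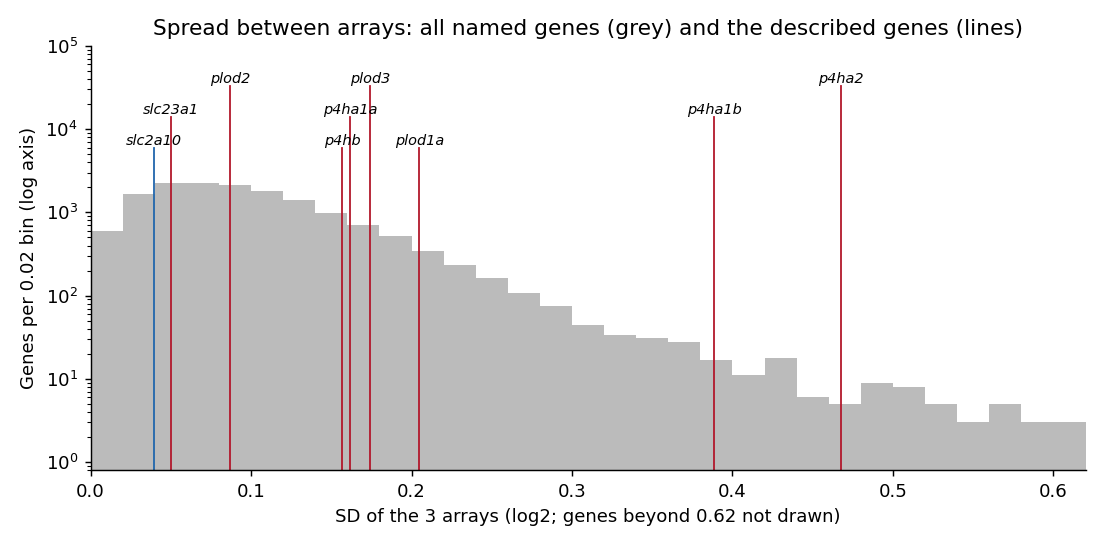
Number of named genes (log axis) by the SD of their log2 ratio over the 3 arrays, in grey, with lines at the 8 described genes and at slc2a10 (blue). P4ha2 (0.47) and p4ha1b (0.39) lie beyond the 99th percentile of all genes (0.35), and slc2a10 lies at 0.04.

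The count of called genes changed when replicate 1 was left out. Without it, 4 of the 8 passed the test, each with a negative mean, a call that 10.1% of all genes received on the same 2 arrays. With both signs counted, 20.7% of all genes were called on these arrays. The 4 called members were plod1a (-0.37, limma adjusted p = 0.0023), p4ha2 (-0.42, adjusted p = 0.0075), plod3 (-0.24, adjusted p = 0.020) and p4ha1b (-0.25, adjusted p = 0.034). The genes p4ha1a, p4hb, plod2 and slc23a1 were not called. Without replicate 2 or without replicate 3 no gene of the 8 was called (10.0% and 16.3% of all genes were), and without replicate 3 the means of p4ha2 (0.04) and p4ha1b (0.13) lay on the slc2a10 side.

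Further settings moved the count. Array weights estimated by limma were 0.51, 2.81 and 0.70 for replicates 1, 2 and 3. With them, plod1a (-0.31, adjusted p = 0.0020) and plod3 (-0.20, adjusted p = 0.017) were called on the opposite side. On that side 16.0% of all genes were called with these weights, and 33.5% with both signs counted. With dye order as a term, plod1a was called (-0.28, adjusted p = 0.0496), beside 6.23% of all genes on that side. With both signs counted, the dye term called 14.3% of all genes.

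In sign, replicate 1 opposed both other arrays for 3 of the 8 genes (p4ha1b, p4ha2 and plod3), as it did for 20.5% of all genes. The sign was the same on all 3 arrays for 2 of the 8 (plod1a, and slc23a1 as the average of its probes), against 50.1% of all genes. The medians over the 8 genes were 0.05, -0.04 and -0.17 on replicates 1, 2 and 3, while those of all genes were 0.01, 0.01 and 0.0007.

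**Figure D4:**
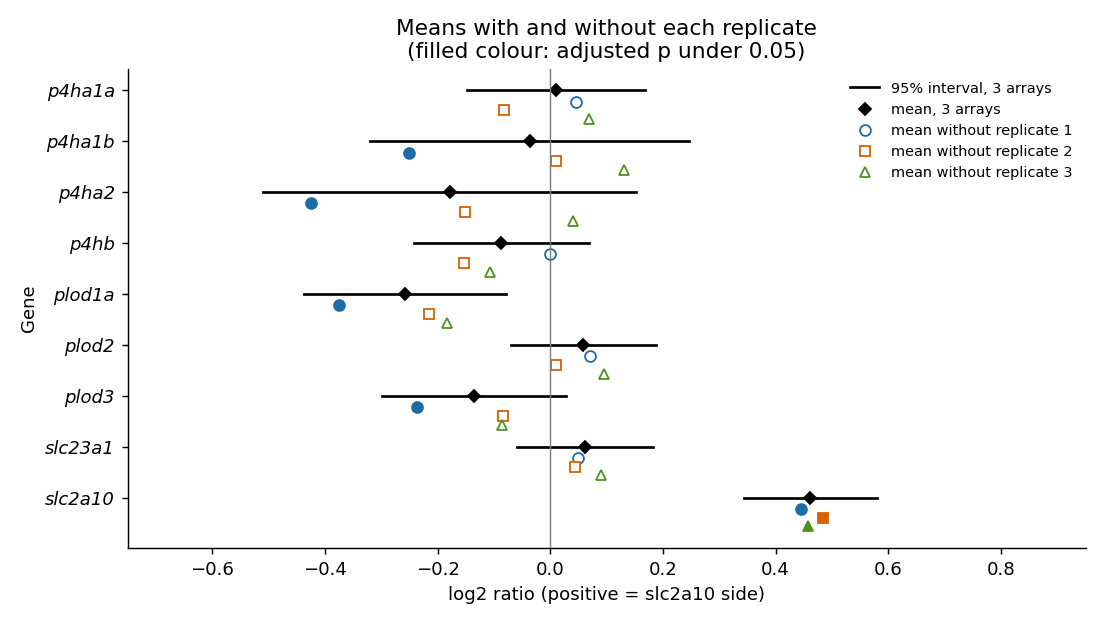
Mean log2 ratio (horizontal axis, positive on the slc2a10 side) of each gene with its 95% interval over 3 arrays, and the mean after leaving out each replicate; filled colour marks an adjusted p under 0.05. Without replicate 1, p4ha1b, p4ha2, plod1a and plod3 are filled on the opposite side, and slc2a10 is filled in every case.

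The partners of these enzymes were then read from the same fit. Of 20 measured genes for collagen folding and modification, 3 were called (15%, against 19.3% of all named genes). Of these, 1 had a positive and 2 had negative means. The median of the list was -0.03 (all genes 0.007). On the slc2a10 side was sparc (0.42 ± 0.06), a collagen-binding matrix protein. Opposite were p3h3, a prolyl 3-hydroxylase family gene (-0.26 ± 0.17), and mesd (-0.20 ± 0.04), a chaperone of lipoprotein receptors in the secretory path. Like plod1a, p3h3 had replicate 1 near 0 and the others lower (-0.06, -0.37 and -0.35). Both p3h3 and mesd lost their call without replicate 2 (adjusted p = 0.23 and 0.21) and without replicate 3 (adjusted p = 0.13 and 0.12, limma).

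The widest spread of this group was that of serpinh1b, named for this after its values were seen. It encodes Hsp47, the chaperone of procollagen. Its 2 probes averaged 1.23, -0.05 and -0.67 on replicates 1, 2 and 3, the same order of arrays as p4ha2 and p4ha1b. The mean was 0.17 ± 0.97 (limma adjusted p = 0.76), and replicate 1 exceeded replicate 3 by 1.90 on the log2 scale (3.74-fold). The related gene serpinh1a of the same list did not share this order. It had -0.16, -0.28 and -0.11 on replicates 1, 2 and 3, with replicate 2 lowest. Its mean was -0.18 ± 0.09 (limma adjusted p = 0.058).

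Of 25 genes of the protein disulfide isomerase family and the thiol oxidases of the endoplasmic reticulum, 3 were called (12%, all genes 19.3%). Positive means belonged to 2 of them, the transmembrane thioredoxin-related gene tmx3a (0.49 ± 0.06) and erp27 (0.21 ± 0.05). The glycoprotein-folding isomerase gene pdia3 was called opposite (-0.33 ± 0.11). The median was -0.02. Without replicate 2, pdia3 (limma adjusted p = 0.064) and erp27 (adjusted p = 0.15) lost their call, and erp27 also without replicate 3 (adjusted p = 0.12).

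Of 33 genes of procollagen export and processing, trappc2 (0.19 ± 0.06), a subunit of the TRAPP complex of vesicle transport, was called with a positive mean and pcolcea (-0.29 ± 0.05), an enhancer of the proteinase that trims procollagen, with a negative one. These 2 genes were 6.06% of the list, against 19.3% of all named genes called, and the median was -0.002. The call of trappc2 was lost on leaving out any 1 of the 3 replicates (limma adjusted p from 0.070 to 0.14), and that of pcolcea without replicate 2 (adjusted p = 0.069).

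Other dioxygenases that share the cofactors of the collagen hydroxylases were read next. Of 46, 8 were called (17.4%, all genes 19.3%), 5 with positive and 3 with negative means, and the median was 0.02. The largest was hpda (1.13, 0.96 and 0.79, mean 0.96 ± 0.17, limma adjusted p = 0.00014), encoding 4-hydroxyphenylpyruvate dioxygenase of tyrosine breakdown, and its paralog hpdb had 0.26 ± 0.14. These enzymes take no 2-oxoglutarate but use the 2-oxo acid of their substrate. Also on that side were the mitochondrial AlkB family gene alkbh7 (0.27 ± 0.03) and p4htma (0.23 ± 0.12), related to prolyl hydroxylases that act on hypoxia-inducible factor. Opposite were the histone and ribosome oxygenase gene riox1 (-0.27 ± 0.14) and the gene of the hypoxia-inducible factor hydroxylase egln3 (-0.25 ± 0.18). The calls of p4htma, hpdb, riox1 and egln3 were each lost without replicate 2 and without at least 1 other replicate (limma adjusted p from 0.054 to 0.36).

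Genes that move or recycle ascorbate and dehydroascorbate included called genes of either sign. Of 34, 7 were called (20.6%, all genes 19.3%), 5 with positive means, slc2a10 itself among them, and 2 with negative means. The share thus includes the MO target, whose positive sign follows from how the signs are given. The median was 0.01. The family member slc23a4, whose rat counterpart carries nucleobases, had 0.53, 0.40 and 0.21 on replicates 1, 2 and 3, all on the slc2a10 side, with a mean of 0.38 ± 0.16 (limma adjusted p = 0.0067). The cytochrome b5 reductase genes had opposite signs, cyb5r1 at 0.44 ± 0.06 and cyb5r3 at -0.39 ± 0.21. The liver gene rgn, whose product makes a precursor of ascorbate in mammals that synthesise it, had 0.36 ± 0.10. Of these, cyb5r3 lost its call without replicate 2 (limma adjusted p = 0.053).

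Among the other facilitative transporters of this ascorbate and dehydroascorbate list, slc2a2 was called (0.34 ± 0.07). The genes of GLUT1 and GLUT3, known in mammals to carry dehydroascorbate, were not called: slc2a1a had 0.03 ± 0.08, slc2a1b -0.02 ± 0.24, slc2a3a -0.01 ± 0.10 and slc2a3b -0.01 ± 0.06. The values of slc2a8 (-0.006 ± 0.18) and slc2a12 (0.06 ± 0.06) did not pass either.

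The substrates of the hydroxylases are the collagen chains. Of 29 measured collagen genes, 5 were called (17.2%, all genes 19.3%), 2 with positive and 3 with negative means, and the median was -0.01. The cartilage gene col10a1a had 2.14 ± 0.23 and col9a3 0.20 ± 0.09. The genes col14a1a (-0.47 ± 0.12), col1a1a of fibrillar type I collagen (-0.20 ± 0.09) and col28a2a (-0.20 ± 0.08) were opposite. Without replicate 2 and without replicate 3, col9a3, col1a1a and col28a2a each lost their call (limma adjusted p from 0.079 to 0.33).

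**Figure D5:**
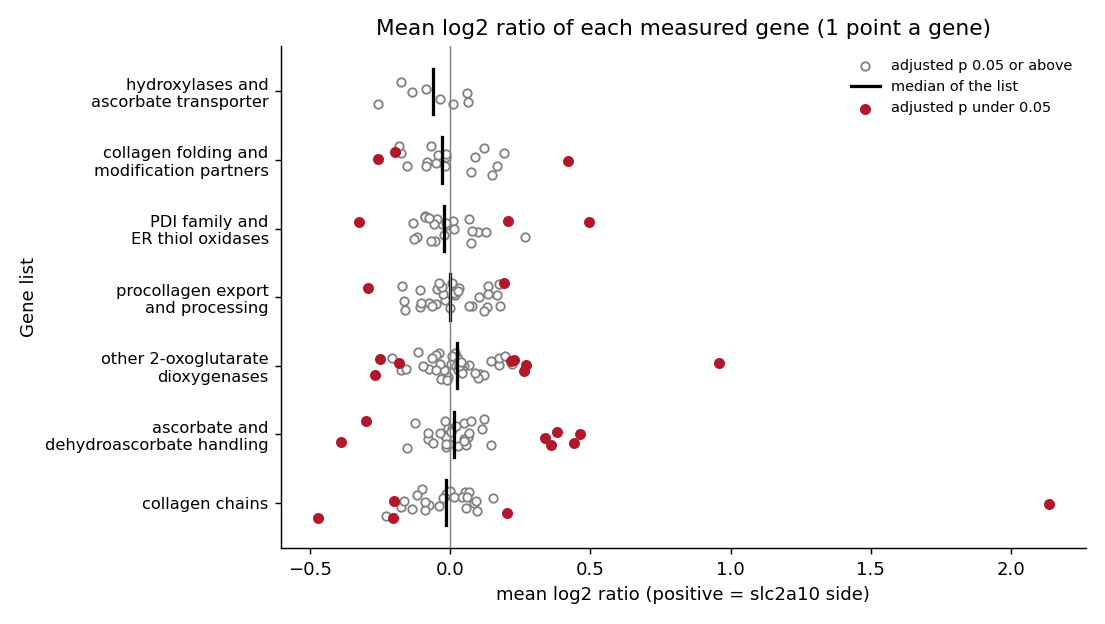
Mean log2 ratio (horizontal axis, positive on the slc2a10 side) of each measured gene of the described set and of 6 lists of related genes, with called genes filled and the median of each list as a bar. All 8 points of the described set are open, and every list has filled points on both sides of 0.

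Markers of tissues that make much collagen, and of kidney and gut epithelium, were read beside these values. Called were 36.8% of the cartilage and bone markers and 20% of the notochord markers. Of the fibroblast and tendon markers 21.4% were called, and of the kidney and gut markers 16.7%, against 19.3% of all named genes. The medians over all measured markers, in the same order, were 0.01, -0.06, -0.01 and -0.03, so the markers named below do not stand for their lists. Of 19 cartilage and bone markers, 6 were called on the slc2a10 side, among them matn1 (1.75 ± 0.21), chad (0.43 ± 0.03) and cnmd (0.36 ± 0.10), and 1 opposite. Of 15 notochord markers, entpd5a (0.25 ± 0.09) and matn4 (0.26 ± 0.18) were called on the slc2a10 side and cyp26a1 (-0.34 ± 0.27) opposite. Of 14 fibroblast and tendon markers, lum (0.33 ± 0.06) and twist2 (0.26 ± 0.13) were called on the slc2a10 side and col1a1a opposite. Of 12 kidney and gut markers, fabp2 (-0.34 ± 0.06) and cdh17 (-0.29 ± 0.18) were called, both opposite. Of these markers, entpd5a, matn4, cyp26a1, twist2, col1a1a and cdh17 lost their call without replicate 2 (limma adjusted p from 0.081 to 0.17), matn4 (0.10) and twist2 (0.051) also without replicate 1, and cyp26a1 (0.14), col1a1a (0.18) and cdh17 (0.091) also without replicate 3. The part of these tissues in the hydroxylase values was not tested.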

How the data were processed

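RNA of slc2a10 MO embryos and of 1 control MO pool was compared on 3 two-colour arrays. The authors deposited 1 log ratio per probe and array, read here as log2. Sizes reach 4.85, about the limit of a log10 ratio from a 16-bit scanner, but the scanner is not known. Neither log10 nor a natural log is thus excluded, and the fold sizes given here would then be too small. The submitters' processing notes name Partek without saying what it did. How the authors corrected background and normalized, the scanner and the ratio's direction are not stated in the labels. Signal above background, spot flags and saturation were not analysed here. Medians of the deposited columns were -0.0016, -0.0075 and -0.0045, with no value missing.

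Of 43648 features, 45 control spots were left out. Of 43603 probes, 23717 had 1 gene symbol from GEO's platform annotation, none had several, and 19886 had none; symbols were updated with RefSeq's GRCz12tu gene table through Entrez IDs (23534 probes) or accessions (42), which changed 21. The sign of replicate 2 was turned because its correlation with both others was under -0.3. For each array the probes of a gene were averaged, and the mean of 3 arrays was tested against 0 with limma 3.58.1 in R 4.3.3 (lmFit, eBayes), calling a Benjamini-Hochberg adjusted p under 0.05. The test leaves out the spread among control embryos, and precision is limited by having 3 arrays. The fit was tested on simulated data.

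The members and lists were chosen with earlier results of these data known. Named were all members, slc2a10, up to 6 called genes per list in order of size, and slc2a and slc23a genes of the ascorbate list; genes most like a called member were to be named too, and none was called. Alternatives were the deposited sign of replicate 2, each replicate left out, a dye term, robust eBayes, array weights, rescaled arrays, the median over probes, every probe tested, and symbols as given.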

Additional observations from a re-analysis of the deposited data

How the results depend on the processing

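With 3 arrays, the unadjusted 95% intervals of the 8 genes reached from -0.51 (p4ha2) to 0.25 (p4ha1b) in log2 (1.42-fold and 1.19-fold). Means of that size thus lay within the intervals of these genes, the most variable of the 8. Resting on limma's standard error, the intervals of p4ha2 and p4ha1b are narrower than their SD alone would give. The smallest detectable change was not tested. Each array set a slc2a10 MO replicate against the same control pool, and this ratio within an array was tested. No further pairing by replicate number was possible because the control is 1 pool. Keeping the deposited sign of replicate 2 gave 0 called genes in the whole table by limma (28 at an unadjusted p under 0.05), and the means of p4ha1a (-0.12), p4ha1b (0.049), plod2 (-0.044), plod3 (0.023) and slc23a1 (-0.0020) changed side. Leaving out each replicate in turn gave 1556 to 3211 called genes and 0 to 4 called of the 8. Means that changed side among these ran from -0.082 to 0.068 for p4ha1a, from -0.25 to 0.13 for p4ha1b, from -0.42 to 0.041 for p4ha2 and from -0.15 to 6.05e-05 for p4hb. Array weights gave 5211 called genes and 2 of the 8, and the dye term 2221 and 1 of the 8. Robust eBayes, rescaled arrays, the median over probes, every probe tested and symbols as given called 0 of the 8 and turned none of their means. The causes were not tested. Of the 36 called list genes that the rule allows to be named, 5 lost their call without replicate 1, 19 without replicate 2, 12 without replicate 3 and 10 with the dye term.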

Other observations

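Replicate 1 was the highest and replicate 3 the lowest array for 3 of the 8 genes (p4ha2, p4ha1b and plod1a) and for serpinh1b. The same order was found for 25.5% of all 15548 named genes. Among 25 genes of the protein disulfide isomerase family and the thiol oxidases of the endoplasmic reticulum it was found for 10. Among 20 collagen folding and modification partners it was found for 6. In other lists the shares were 64.3% (fibroblast and tendon), 41.7% (kidney and gut), 41.3% (other dioxygenases) and 40.0% (notochord). They were 37.9% for collagen chains, 27.3% for procollagen export and processing, 26.5% for ascorbate handling and 26.3% for cartilage and bone. Some genes with this order were named after their values were seen, so no test is read from them and nothing particular to a cell compartment follows. The gene hsp90aa1.2 of a cytosolic chaperone had 0.60, -0.45 and -1.46 on replicates 1, 2 and 3, a difference of 2.06 in log2 between replicates 1 and 3. The chaperone gene hsp90b1 of the endoplasmic reticulum, encoding GRP94, had 0.50, 0.02 and -0.53, and the BiP gene hspa5 had 0.75, 0.30 and -0.08. By contrast, pdia3 of the isomerase list had -0.21, -0.43 and -0.34, and tmx3a had 0.42, 0.54 and 0.53. The gene canx, encoding calnexin, had the same order of arrays as hsp90b1 but differed little between them (-0.004, -0.09 and -0.16).

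Over all named genes, the 3 with the profile closest to that of p4ha2 were prpsap1 (distance 0.11), rfx1b (0.12) and ano10b (0.12). The osteoblast gene bglap, encoding osteocalcin and named after its values were seen, ranked 4 (distance 0.14). It had 0.43, -0.19 and -0.67 on replicates 1, 2 and 3. For p4ha1b they were ammecr1 (0.06), tktb (0.08) and znf423 (0.09). These likenesses rest on 3 arrays, and genes with a colon in their symbol or a name starting with loc or si were left out of them. Neither p4ha2 nor p4ha1b was called, so the likenesses go beyond the rule for naming genes and are a description only.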
